A study of Saccharomyces cerevisiae with 30 samples.

Results

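Evolved line 5 is 1 of 8 independent lines of tetraploid Saccharomyces cerevisiae that were propagated for about 1000 generations, and the data described here are the 3 arrays that compared it with its own ancestor, out of 30 arrays in the series. They were chosen by their titles alone. The other arrays compared the other lines with their ancestors, and ancestral and evolved tetraploid 4 with a diploid. Both cultures were W303 cells of mating type a/a/α/α with SPO11, the gene that starts meiotic recombination, deleted, with auxotrophic alleles of URA3, ADE2, HIS3, LEU2 and TRP1 and a reporter cassette at CAN1, and with a drug marker. They were grown to log phase in YPD, a rich glucose medium, at 36°C, whereas the evolution itself took place at a lower temperature. The evolved culture came from 1 clone, picked among several colonies of its population for high fitness. RNA of the evolved culture carried the red Alexa Fluor dye and that of the ancestor the green one, on every array, so every value below is the log2 ratio of evolved over ancestral RNA on 1 spotted oligonucleotide array. The 3 arrays are technical replicates at the level of RNA isolation, and p-values therefore measure technical spread. Each culture is a bulk of cells, so a change in every cell and a change in the share of cells in some state cannot be told apart. The ratios carry no measure of ploidy, so the labelled ploidy was not checked.

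Rapidly dividing yeast devotes much of its transcription to ribosomes. RNA polymerase I makes ribosomal RNA in the nucleolus, a large set of helicases, chaperones and other assembly factors processes and packs it, and the ribosomal proteins complete the subunits. Genes of this program are known to go down together when growth slows, while genes for heat shock proteins, trehalose, glycogen and other general stress functions tend to go up.

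The table had 6377 rows, and the 6290 measured on 2 or all 3 arrays of line 5 were tested. The gene names listed beside the rows were not borne out by the values. Over the 21 arrays that did not involve line 4, the correlation between rows that carry a ribosomal protein's name averaged −0.0028 over 132 rows, and the 57 pairs of rows listed as copies A and B of 1 ribosomal protein had a median correlation of 0.08. In line 5 the rows listed as ribosomal proteins, as heat shock proteins and as mitochondrially encoded genes had medians of 0.04, 0.03 and −0.03, against a median close to 0 over all rows tested. The values followed the alphabetical order of the names in another arrangement, which was fixed on line 4 with 346 rows identified by their values. This gave 3766 rows a name, while 2611 rows stayed without one and are called by their place in the table. With these names, 35 pairs of ribosomal protein copies had a median correlation of 0.79 over the same 21 arrays, and the correlation averaged 0.35 among 34 ribosomal protein rows that were not themselves identified by value. When each identified row was left out in turn, 221 of the 222 that could be placed by their neighbours received the right name, so a small number of names may be wrong. The names and lists below were set up after the values were seen.

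In line 5, 23 rows changed at least 2-fold with an adjusted p under 0.05 (limma, Benjamini-Hochberg), 12 higher and 11 lower, which is 0.366% of the rows tested, with 0.191% higher and 0.175% lower. Of these, 16 could be named. The lower rows held DBP2, NSR1, RRB1 and SDA1, which act in ribosome assembly, RMT2, which methylates a ribosomal protein, AAH1, which converts adenine to hypoxanthine, FIT2, a cell wall mannoprotein of iron uptake, and ILT1, a gene of little known function. The higher rows held HSP30, a stress-induced membrane protein that restrains the plasma membrane proton pump, EGO4, a relative of a subunit of the vacuolar EGO complex, SPI1, a cell wall protein induced by stress, EMI2, a relative of glucokinase, RTC3, JIP4, AIM33 and YCL042W. Without a minimum fold, 40.6% of the rows passed the adjusted p, 19.0% higher and 21.6% lower.

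**Figure D1:**
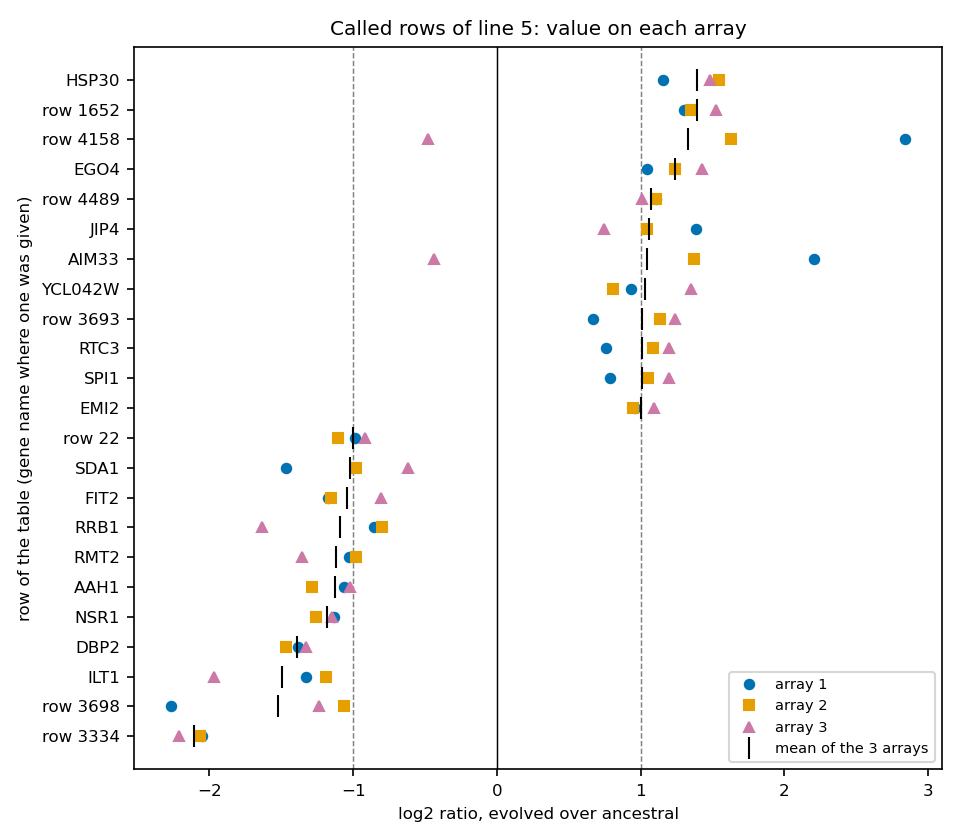
Log2 ratio of evolved over ancestral RNA (horizontal axis) on array 1, array 2 and array 3 (circles, squares and triangles) for each of the 23 rows called in line 5, with the mean as a black bar, 0 as a solid line and 2-fold as dashed lines. The 3 values lie close together for most rows, while row 4158 and AIM33 are far above 0 on arrays 1 and 2 and below 0 on array 3.

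HSP30 was the highest row, at 1.15, 1.54 and 1.48 on arrays 1, 2 and 3. Its mean of 1.39 ± 0.21 (SD, n = 3) is a 2.62-fold rise with an adjusted p of 2.81e-08. Row 1652, which has no name here, was at 1.30, 1.35 and 1.52, with a mean of 1.39 ± 0.12 and an adjusted p of 3.34e-10. All 3 arrays placed these rows past 2-fold. EGO4 was at 1.05, 1.24 and 1.43, a mean of 1.24 ± 0.19 with an adjusted p of 4.31e-10. Row 4489 was at 1.11, 1.11 and 1.01, with a mean of 1.07 ± 0.06, the smallest SD among the 23 rows. Row 4158 reached 2.84 on array 1 and 1.63 on array 2 but was at −0.48 on array 3. Its mean of 1.33 thus has an SD of 1.68, and the adjusted p of 0.0075 rests on a spread pooled over all 30 arrays. AIM33, a predicted oxidoreductase, followed the same course, at 2.20, 1.37 and −0.44, and these were the only called rows whose arrays disagreed in sign. Both calls were lost without array 1 and also without array 2. The counts over the 23 rows below include both.

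The other higher rows were near the 2-fold limit. JIP4 was at 1.39, 1.05 and 0.74, with a mean of 1.06 ± 0.32. SPI1 was at 0.79, 1.05 and 1.20, with a mean of 1.01 ± 0.21. RTC3, a stress-induced protein, was at 0.76, 1.08 and 1.20, with a mean of 1.01 ± 0.23. For SPI1, RTC3 and the unnamed row 3693 (0.67, 1.13 and 1.24) array 1 gave the lowest of the 3 values. EMI2 was at 0.96, 0.94 and 1.10 and its mean of 1.00 lay exactly on the limit, whereas YCL042W, an uncharacterized reading frame, was at 0.93, 0.81 and 1.35.

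Row 3334 was the lowest, at −2.05, −2.06 and −2.21. Its mean of −2.11 ± 0.09 is 4.31-fold lower in evolved cells, with an adjusted p of 2.35e-09. Row 3698 was at −2.27, −1.07 and −1.23, with a mean of −1.52 ± 0.65 and array 1 well below the others. ILT1 was at −1.33, −1.19 and −1.97, a mean of −1.50 ± 0.42 with an adjusted p of 2.05e-08. DBP2, a DEAD-box RNA helicase, was at −1.38, −1.47 and −1.32, a mean of −1.39 ± 0.07 with an adjusted p of 4.93e-11. NSR1, the yeast relative of nucleolin, was at −1.13, −1.26 and −1.15, a mean of −1.18 ± 0.07 with an adjusted p of 3.94e-09. These 5 rows were past 2-fold on all 3 arrays.

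Among the remaining lower rows AAH1 also passed 2-fold on every array, at −1.06, −1.29 and −1.02. RMT2 was at −1.03, −0.98 and −1.35, and FIT2 at −1.17, −1.16 and −0.80. RRB1, a chaperone that carries a protein of the large subunit to the nucleus, was at −0.85, −0.80 and −1.63. SDA1, needed for export of the large subunit, was at −1.47, −0.98 and −0.62, so array 3 was the lowest for RRB1 and the highest for SDA1. Row 22 was at −0.99, −1.10 and −0.92, and its mean lay on the limit.

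The 3 arrays did not agree equally well. Arrays 1 and 2 correlated at r = 0.86 over all rows, arrays 2 and 3 at 0.62 and arrays 1 and 3 at 0.57, which are correlations across genes and not across replicates. The mean of the 3 pairs, 0.68, lies within the range of 0.58 to 0.93 over the 8 lines. The median SD of a row was 0.11, and 4062 of the 6216 rows with 3 values (65.3%) had the same sign on each array. A ratio of at least 2-fold on any array occurred in 123 rows, but in 100 of them on 1 array only, most often on array 3 (61 rows), less often on array 1 (31 rows) and seldom on array 2 (8 rows). Only 4 rows were 2-fold higher and 6 rows 2-fold lower on all 3 arrays. No row was 2-fold higher on 1 array and 2-fold lower on another.

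**Figure D2:**
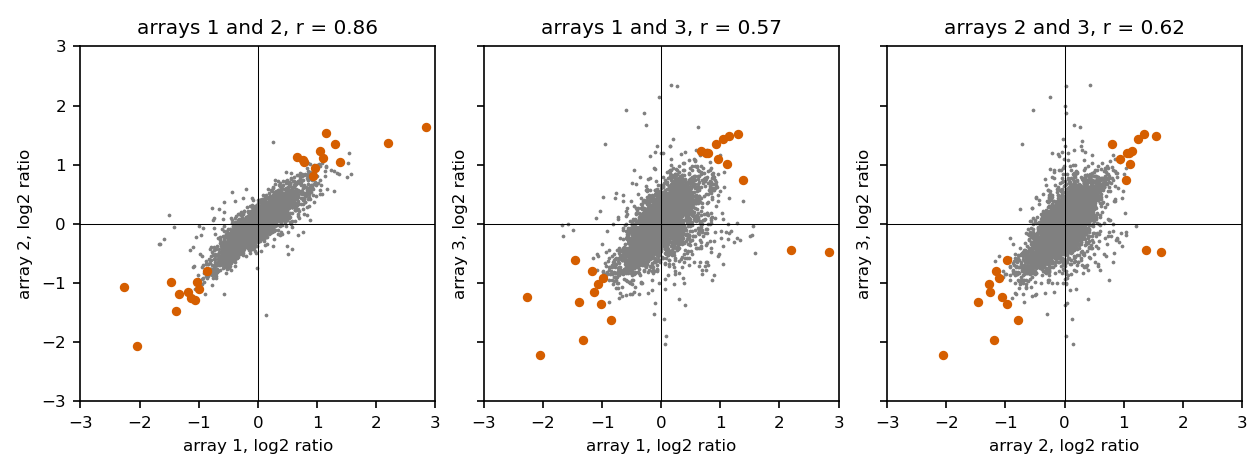
Log2 ratios of every row on array 1 against array 2, array 1 against array 3 and array 2 against array 3 of line 5 (grey), with the 23 called rows in orange. The cloud is tightest for arrays 1 and 2, with r = 0.86, and widens toward rows that only array 3 places far from 0.

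Leaving out each array in turn, 11 of the 23 calls stayed each time. These were DBP2, NSR1, AAH1, RMT2, ILT1, row 3334 and row 3698 among the lower rows, and HSP30, EGO4, row 1652 and row 4489 among the higher ones. The median size of a log2 ratio was 0.18, 0.17 and 0.21 on the 3 arrays, a mean of 0.19 ± 0.02 (SD, n = 3). Line 5 ranked 5 in size among the 8 lines, whose means ran from 0.13 to 0.32, and its neighbours in that order, at 0.20 for line 6 and 0.17 for line 3, lay within 1 SD.

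The genes of ribosome assembly were lower in evolved line 5 as a group. Of 108 assembly factors with a name and a test, 89 (82.4%) passed the adjusted p with a lower mean and 2 with a higher one, against 21.6% lower over all rows tested. Their median was −0.56, compared with −0.01 over all named rows, and it was −0.52, −0.53 and −0.59 on arrays 1, 2 and 3. On all 3 arrays 100 of the 108 were below 0. Besides DBP2, NSR1, RRB1 and SDA1, the lowest were HAS1, a helicase of both subunits, at −1.01, −0.93 and −0.95, and MAK16, a factor of the large subunit, at −0.98, −1.04 and −0.80. RSA4, SSF1, RIX7 and ERB1, all factors of the large subunit, had means of −0.90, −0.87, −0.86 and −0.86. UTP21, a component of the processome that makes the small subunit, had a mean of −0.85. The exceptions were NOP19, at 0.39, 0.27 and 0.30, and FAF1, which was at 1.58 and 0.84 on arrays 1 and 2 but at −0.50 on array 3, and only 1 factor was higher without array 1 or without array 2. Since the rows identified by value came from genes that had changed in line 4, the count was also made without them, and 60 of 76 were lower.

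Of 9 tested subunits of the RNA polymerases that make ribosomal and transfer RNA, 5 passed as lower and none as higher, with a median of −0.31, against 21.6% lower over all rows. RPA190, the largest subunit of polymerase I, was at −0.71, −0.89 and −1.26, while the other subunits lay between −0.49 and −0.10. Without rows identified by value only 2 of 6 were lower. Ribosomal proteins fell by less than the assembly factors. Of 105 tested, 67 (63.8%) were lower and none higher, with a median of −0.27 and medians of −0.27, −0.29 and −0.24 on the 3 arrays. None reached 2-fold. Without the rows identified by value, 21 of 34 were lower. RPS0B, with −0.43, −0.42 and −0.69, and RPL31A, with −0.58, −0.48 and −0.47, were among the lowest. RPS21A had the lowest mean, −0.73, which rested on array 1 (−1.66, against −0.34 and −0.20). Copies A and B of a ribosomal protein are nearly identical, so their probes may share signal.

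**Figure D3:**
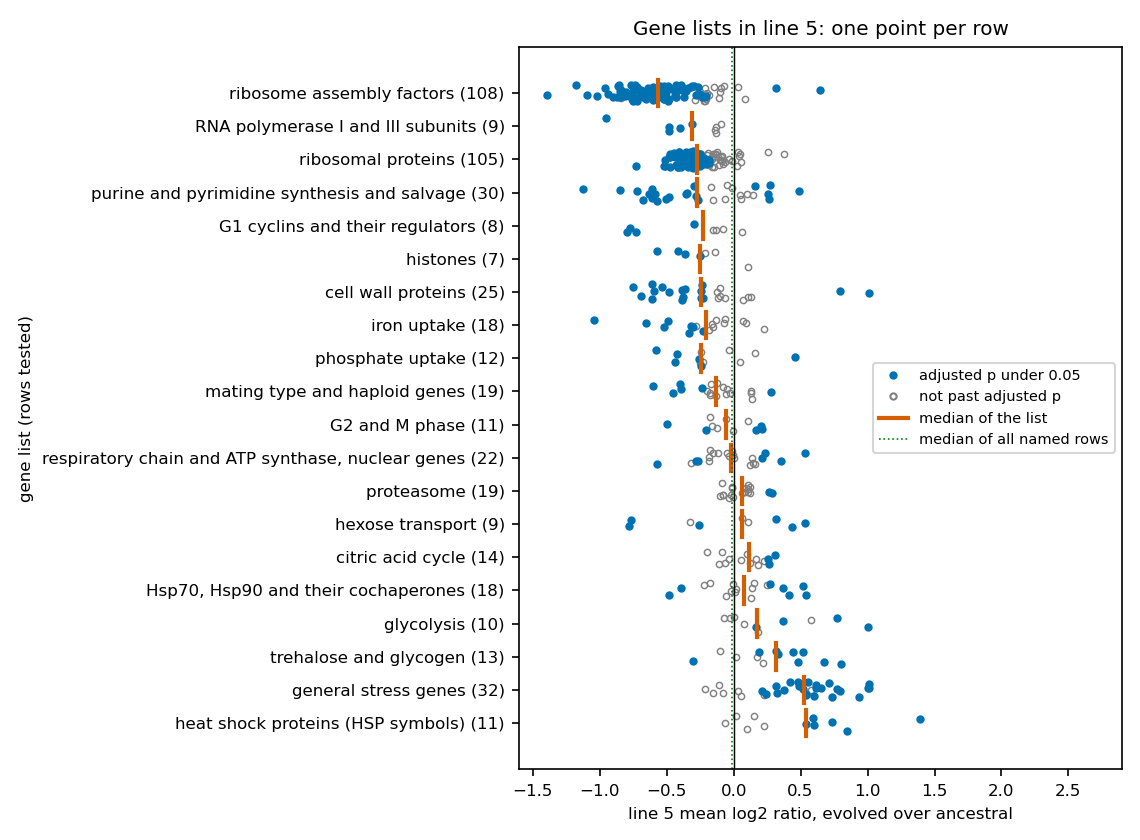
Mean log2 ratio of evolved over ancestral RNA in line 5 (horizontal axis) for each named row of 20 gene lists, with rows past the adjusted p filled in blue, other rows open, and the median of each list in orange. Ribosome assembly factors, with a median of −0.56, lie at the left, and general stress genes and heat shock proteins, with medians of 0.53 and 0.54, at the right.

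Nucleotide metabolism was lower in part. Of 30 tested genes of purine and pyrimidine synthesis and salvage, 16 (53.3%) were lower, against 21.6% over all rows tested. The list had 5 (16.7%) higher genes, against 19.0%, and a median of −0.27. The higher count was 3, 2 and 3 without array 1, array 2 and array 3, and the lower count 15 each time. Without rows identified by value the counts were 8 lower and 5 higher of 21, with a median of −0.07. After AAH1 the lowest was FUI1, the uridine permease, at −0.80, −0.77 and −0.97. PRS1, which makes the common precursor of nucleotides, was at −0.62, −0.62 and −0.79. The guanine branch fell as well, with means of −0.61 for IMD3, −0.59 for IMD4 and −0.61 for GUA1. The CTP synthases moved in opposite directions, as URA7 was at −0.65, −0.68 and −0.85 and URA8 at 0.47, 0.52 and 0.48.

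The G1 cyclin genes CLN2, PCL1 and CLB6, an S phase cyclin gene, were lower. CLN2 was at −0.75, −0.74 and −0.91, PCL1 at −0.77, −0.85 and −0.70, and CLB6 at −0.49, −0.74 and −0.96. The list of G1 cyclins and their regulators had 15 genes, of which 8 were tested. Of these, 4 (50%) were lower and none higher, against 21.6% lower over all rows tested. The fourth was SWI6, a subunit of the factors that switch on G1 genes, with a mean of −0.30. Of 11 genes of G2 and M phase 3 (27.3%) were higher and 2 (18.2%) lower, near the 19.0% and 21.6% over all rows tested. Only 1 was higher without array 1 or without array 3, and 1 lower without array 1 or without array 2. Among these 11 genes CLB1, a mitotic cyclin, had the lowest mean, −0.50. Of 7 histone genes 4 (57.1%) were lower, with HHF2 lowest at −0.67, −0.51 and −0.54. Without rows identified by value 3 of 7 genes of the G1 list and 3 of 6 histone genes were lower.

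Stress genes were higher. Of 32 tested general stress genes 24 passed as higher and none as lower, against 19.0% higher over all rows tested, and their median was 0.53. The medians on the 3 arrays were 0.27, 0.54 and 0.63, so array 1 showed the smallest shift, and with array 3 left out 16 genes passed as higher. Without rows identified by value 7 of 10 were higher. Besides RTC3, SPI1 and EMI2, the highest was CIP1, an inhibitor of the cyclin-dependent kinase, at 0.83, 0.94 and 1.04. YGP1, a secreted stress-induced glycoprotein, was at 0.71, 0.73 and 0.95. HSP12 and CTT1, both widely used as stress reporters, differed, with a mean of 0.23 and an adjusted p of 0.11 for HSP12 and a mean of 0.65 and an adjusted p of 0.0019 for CTT1, the cytosolic catalase. Of these 32 genes 11 also stand in another list below or above.

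Of 11 heat shock proteins named by an HSP symbol 6 (54.5%) were higher, against 19.0% over all rows tested. None was lower and the median was 0.54, and 2 of the 3 that were not identified by value were higher. After HSP30 came HSP31, a chaperone of the DJ-1 family, at 0.80, 0.84 and 0.89, and HSP104, which dissolves protein aggregates, at 0.47, 0.88 and 0.85. The small heat shock proteins HSP26 and HSP42 had means of 0.60 and 0.54. HSP82, the inducible Hsp90, did not pass, with −0.24, 0.18 and 0.12. Hsp70 genes moved both ways. SSA4, the most strongly heat-inducible cytosolic Hsp70, was at 0.28, 0.67 and 0.66, and its partner SIS1 at 0.35, 0.38 and 0.82. SSB1 and SSB2, the Hsp70 proteins that sit on the ribosome, were lower, at −0.41, −0.46 and −0.31 and at −0.56, −0.47 and −0.43. In all, 5 of 18 genes of Hsp70, Hsp90 and their cochaperones (27.8%) were higher and 2 lower. Without rows identified by value 2 of 11 were higher and 1 lower, so the higher count was then near the share over all rows. The proteasome stayed near 0, with 2 of 19 genes (10.5%) higher (1 without array 1), none lower and a median of 0.06.

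Reserve carbohydrate genes were higher as well, 8 of 13 tested (61.5%) with 1 lower and a median of 0.32. The count was 6 of 9 when rows identified by value were left out. Over all rows tested 19.0% were higher and 21.6% lower. GSY1, a glycogen synthase, was at 0.57, 0.77 and 1.06, and TPS2, which completes trehalose synthesis, at 0.55, 0.69 and 0.78. The lower gene was PIG1, a putative partner of a phosphatase that controls glycogen synthase, with a mean of −0.30. Of 10 glycolytic genes 4 (40%) were higher and none lower. These were EMI2, GLK1, the glucokinase gene, at 0.60, 0.72 and 0.98, ENO1, an enolase gene, with a mean of 0.37, and TDH1, a glyceraldehyde phosphate dehydrogenase gene, with a mean of 0.17. HXK1, a hexokinase gene, had a mean of 0.58 and did not pass (adjusted p = 0.054). EMI2, GLK1 and HXK1 are also counted among the general stress genes. Hexose transporters were split. HXT5 and HXT1 had means of 0.53 and 0.43, and HXT15 and HXT17 means of −0.77 and −0.78. HXT15 and HXT17 are close paralogs whose probes may share signal. Of 14 genes of the citric acid cycle 3 (21.4%) were higher, near the share over all rows, and none lower, with a median of 0.11. Nuclear genes of the respiratory chain and ATP synthase had a median of −0.02. Of 22 tested, 4 (18.2%) were higher and 3 (13.6%) lower, neither above the share over all rows. Only 2 were higher without array 2 or without array 3, and 1 was lower without array 3. Both ends of that range were NADH dehydrogenases, the internal NDI1 at 0.46, 0.44 and 0.70 and the external NDE1 at −0.57, −0.39 and −0.75.

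Iron uptake and cell wall genes leaned lower. Of 18 iron uptake genes 8 (44.4%) were lower and none higher, with a median of −0.21, against 21.6% lower over all rows tested. After FIT2 the lowest were TIS11, which promotes decay of messengers for iron-using proteins, at −0.59, −0.57 and −0.79, and the siderophore transporter ARN1 at −0.43, −0.51 and −0.62. Without array 2 only 5 passed. Of 25 cell wall genes 15 (60.0%) were lower, with a median of −0.25, and CCW14 was lowest at −0.89, −0.64 and −0.73. Without rows identified by value the counts were 7 of 17 iron genes and 12 of 17 cell wall genes. SPI1 and YGP1 were the only cell wall genes that were higher. Of 12 phosphate genes 5 were lower and 1 higher, but none of the 5 that were not identified by value passed as lower, and 3 of the 12 did without array 1 or without array 2.

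Of 19 tested mating type and haploid genes 5 were lower and 1 higher, close to the 21.6% lower over all rows, with a median of −0.13 and a range from −0.60 for AGA2, the a-agglutinin subunit, to 0.28 for RME1, a repressor of meiosis, the higher gene, which no longer passed without array 2. The receptor genes STE2 and STE3 had means of 0.13 and −0.18 and did not pass.

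By chromosome, line 5 was flat. Over the 15 chromosomes with at least 20 named rows, the medians of line 5 ran from −0.04 to 0.03. Lines 1 and 3 were nearly as flat, with highest chromosome medians of 0.05 and 0.08, while lines 2, 4, 6, 7 and 8 reached 0.28, 0.34, 0.26, 0.28 and 0.19. Chromosome I had only 5 named rows and was not judged. These medians were not tested.

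The changes of line 5 were partly shared with other lines. Of the 23 calls, 15 were called in the same direction in at least 1 other line, 6 higher and 9 lower, and none was called in the opposite direction. Row 4158, which was shared with line 6, is one of these 15. Line 4 shared 13 of them (56.5% of the calls of line 5, and 2.50% of the 521 calls of line 4), line 2 shared 7 (30.4%, and 7.61% of its 92 calls), line 6 shared 2, and lines 1, 3, 7 and 8 shared 1 each. The same rule called 0.624%, 1.45%, 0.584% and 8.39% of the rows in lines 1 to 4 and 0.739%, 0.222% and 0.204% in lines 6 to 8, and lines 4 and 2, which shared most, had the most calls. In lines 6 and 7 all 23 rows had the direction seen in line 5, and in line 2 22 of them. In line 1 only 4 did, and 10 of the 11 lower rows were above 0 there. Over all rows the means of line 5 correlated at r = 0.54 with those of line 7, 0.52 with line 4, 0.44 with line 2, 0.35 with line 6, 0.26 with line 3, 0.02 with line 8 and −0.19 with line 1. The dye orientation was the same on every array, so a dye effect of a gene would enter each line, and its part in these correlations was not tested.

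**Figure D4:**
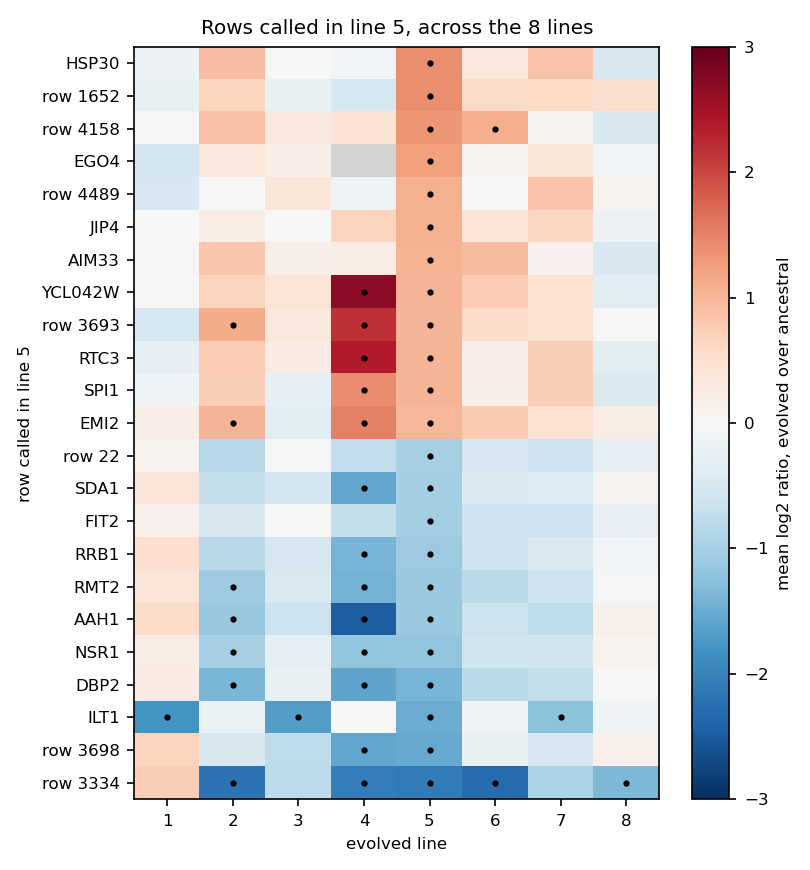
Mean log2 ratio of evolved over ancestral RNA (colour) in evolved lines 1 to 8 (columns) for the 23 rows called in line 5 (rows), with a dot where the row was called in that line and grey where it had no mean. Dots in the column of line 4 mark 13 of the rows, and the column of line 1 is mostly opposite in colour to line 5.

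The 3 shared rows of largest size behaved differently across lines. Row 3334 was called lower in lines 2, 4, 6 and 8 too, at −2.22, −2.07, −2.32 and −1.35 respectively, while it was at 0.75 in line 1. It differed in line 5 from lines 1, 3, 7 and 8 (limma, adjusted p of at most 0.022) and not detectably from the others. Row 3698 was called only in line 4 besides, at −1.56, and line 5 was lower than every line but line 4. ILT1 was called in lines 1, 3 and 7 as well, at −1.79, −1.68 and −1.24, whereas it was at −0.19, 0.01, −0.11 and −0.14 in lines 2, 4, 6 and 8. For ILT1 line 5 differed from each of those 4 lines and not detectably from the 3 others, where the adjusted p was between 0.25 and 0.57.

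Of the 23 calls, 8 were made in line 5 and in no other line, 6 higher, AIM33 among them, and 2 lower. Missing a threshold elsewhere does not make a row particular to line 5, so each difference between lines was tested. Line 5 differed from line 1 in 47.1% of the rows, from line 2 in 30.8%, from line 3 in 25.8%, from line 4 in 48.9%, from line 6 in 29.9%, from line 7 in 13.1% and from line 8 in 35.1%, with no minimum fold. For 3 rows line 5 differed from all 7 other lines in the direction of its change. Row 1652 stood furthest apart, at 1.39 against −0.52 to 0.66 in the other lines, with adjusted p values of at most 7.85e-04. FIT2 was at −1.05 against −0.72 to 0.14, with adjusted p values of at most 0.019. JIP4 was at 1.06 against −0.18 to 0.68, with adjusted p values of at most 0.0497. The call of JIP4 was lost without array 1 and that of FIT2 without array 1 or array 2, whereas row 1652 stayed past 2-fold under each removal. EGO4 had too few values in line 4 for this test, but line 5 was above the 6 other lines, which lay between −0.58 and 0.35. HSP30 was higher than in 5 lines, and the differences from line 2 (0.93) and line 7 (0.86) did not pass, with adjusted p values of 0.076 and 0.078. Row 4489 was higher than in 6 lines and not detectably different from line 7 (0.85, adjusted p = 0.20).

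Against the mean of the other 7 lines, 3 of 6070 rows (0.0494%) differed by at least 2-fold. These were HSP30, 1.19 ± 0.15 (SE) above that mean, row 1652, 1.20 ± 0.11 above it, and row 3698, 1.13 ± 0.14 below it. Without a minimum fold 9.85% of the rows were higher in line 5 than that mean and 12.5% lower. Ribosome assembly factors were lower than the mean of the other lines in 40 of 103 cases and higher in 1. Cell wall genes were lower in 10 of 25 and higher in 3. Ribosomal proteins were lower in 10 of 103 and higher in 2, no more often than over all rows. General stress genes were higher in 7 of 32 and lower in 4, and that lower count matched the share over all rows. CLN2, PCL1, CLB6 and SWI6 were each lower than that mean, 4 of the 8 tested genes of their list. HSP31 and CIP1 were each higher than in every other line but line 7, and in line 4 CIP1 was at −0.83.

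**Figure D5:**
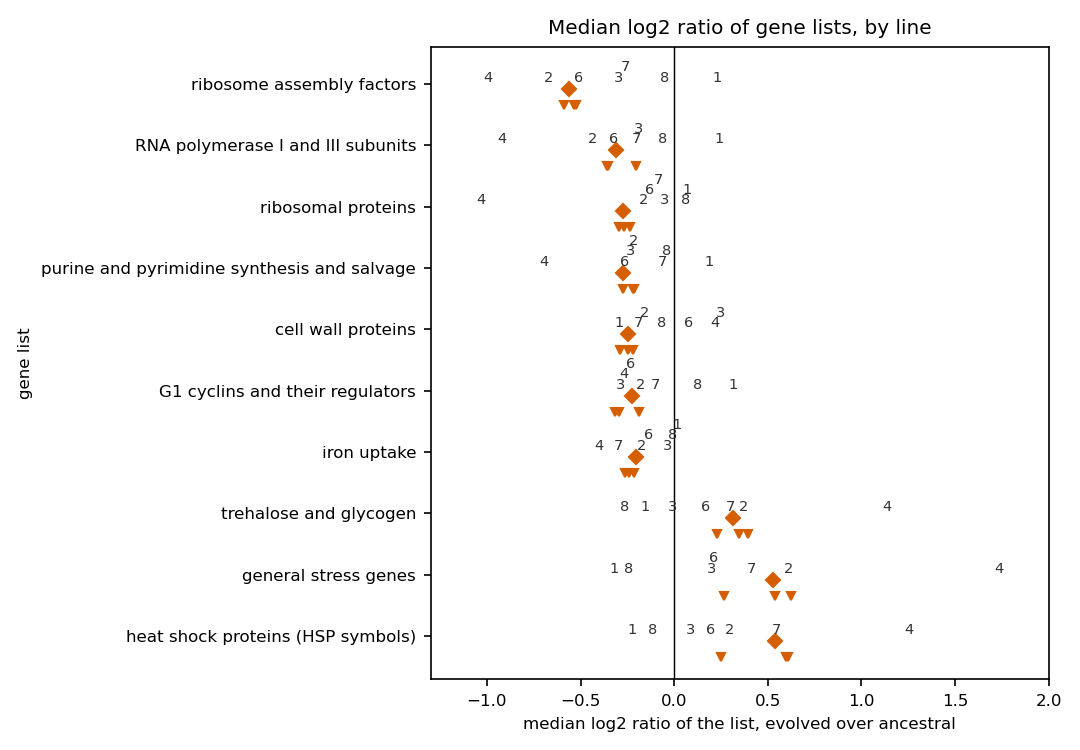
Median log2 ratio of 10 gene lists (horizontal axis) in line 5 (diamond), on each of its 3 arrays (triangles) and in the other lines (numbers, offset upward where they would overlap). For ribosome assembly factors line 5, at −0.56, lies between line 2 and line 6, and line 4 lies furthest out in 8 of the lists, with cell wall proteins and G1 cyclins as the exceptions.

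For ribosome assembly factors, ribosomal proteins and general stress genes the list medians placed line 5 between line 4 and most other lines. For ribosome assembly factors line 4 had a median of −0.99, line 2 of −0.67, line 5 of −0.56, line 6 of −0.51 and line 1 of 0.23. For ribosomal proteins it was −1.03 in line 4, −0.27 in line 5 and between −0.16 and 0.07 in the other lines. General stress genes reached a median of 1.73 in line 4, ahead of line 2 (0.61), line 5 (0.53) and line 7 (0.41), and lay at −0.32 in line 1. Many names come from genes changed in line 4, so the medians of line 4 are not independent of the naming. Cell wall genes had a median of −0.25 in line 5 but 0.22 in line 4 and 0.25 in line 3, and CCW14, at −0.75 in line 5, was at 0.40 in line 4.

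With no minimum fold, 20 rows of line 5 differed from all 7 other lines, 8 higher and 12 lower, a count added after the data were seen, and the number was 8, 27 and 22 without array 1, array 2 and array 3. Besides FIT2 and JIP4, 9 of them could be named. CCC1, the vacuolar iron importer, was at −0.73, −0.65 and −1.08 and lay between −0.48 and 0.18 in the other lines. PCL5, a cyclin that targets the transcription factor Gcn4, was at 1.15, 0.98 and 0.43, against −0.43 to 0.38. ALP1, an arginine permease, was at −0.48, −0.75 and −0.41, HIR1, a repressor of histone genes, at −0.52, −0.32 and −0.75, and SMC2, a condensin subunit, at −0.45, −0.20 and −0.41. YPT11, a small GTPase of mitochondrial inheritance, was at 0.31, 0.34 and 0.64. The others were YER188W, with a mean of 0.81, and YHL050C and YHR219W, with means of −0.39 and −0.37, which belong to a repeated subtelomeric family whose probes may share signal. Of the 18 tested genes of the iron list only FIT2 was set apart in this way, and CCC1 is not in that list.

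Just outside the 2-fold limit lay 16 rows with a mean of at least 0.9 in size, 11 lower and 5 higher, of which 15 passed the adjusted p. Named ones were HAS1, RPA190, MAK16, RSA4, CHA1, a serine and threonine deaminase, with −0.93, −0.92 and −0.87, and IZH4, a membrane protein linked to zinc, with −0.95, −1.01 and −0.86. YNL017C had a mean of 1.00 from values of 0 and 2 on arrays 2 and 3, and did not pass.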

How the data were processed

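The file held, per the labels and the study's methods, log2 ratios of evolved over ancestral signal that the authors computed from spotted yeast oligonucleotide arrays in GeneSpring GX after LOWESS normalization within each array and removal of low-intensity spots. Spot intensities were not used here, so signal over background is unknown, and no dyes were swapped, so a dye effect of a gene stays in every ratio. Values at the floor of −6.6439 were set to missing, and rows with 2 or more of 3 values in line 5 were tested.

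A model with 1 mean per group was fitted to all 30 arrays in 10 groups with limma 3.58.1 (lmFit and eBayes, R 4.3.3), with Benjamini-Hochberg adjustment over all rows. The groups were the evolved over ancestral lines and the comparisons of ancestral and of evolved tetraploid 4 with a diploid. All of them entered the variance of each row. Rows were called at an adjusted p under 0.05 where the mean was also 1 or more in size. Differences between line 5 and each other line, or the mean of the other 7, were contrasts of this model. The steps were tested on simulated data in which changed rows were set well past the 2-fold limit and noise was independent between arrays. Calls near the limit were not covered by that test. The 3 arrays of a line are technical replicates, so p-values cover RNA isolation, labelling and hybridization, not cultures or clones.

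The table lists gene names beside the values, but the values follow another arrangement of the same names. Rows were identified by their line 4 ratios in gene tables supplied with the paper, used only as keys. Rows between identified rows received the names between them where the numbers of rows and names were equal. Of 353 genes, 307 matched 1 row, 39 several, which order settled, and 7 none. For 3461 of the named rows the R64 RefSeq table gave a locus tag. All called rows are described, and the 5 highest and 5 lowest are given with every array. Gene lists and rows were chosen with earlier results of these data known, and the naming was devised after the values were seen. Counts of a list cover only its members with a name and a test. Coverage was lowest for RNA polymerase subunits and hexose transporters, 9 of 20 genes each, and for the G1 list, 8 of 15. No sequences are shown. Alternatives covered centring, quantile normalization, the floor, the samples fitted, a block for the replicate number, robust variances, a t-test of the 3 arrays against 0, the fold minimum, and leaving out each array or line.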

Additional observations from a re-analysis of the deposited data

Results flagged for a closer look

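For 3 rows the change in line 5 differed from the mean change of the other 7 lines, by a limma contrast and by at least 2-fold. HSP30 was 1.19 above that mean (adjusted p = 4.84e-06), row 1652 was 1.20 above it (adjusted p = 6.74e-08), and row 3698 was 1.13 below it, a difference of −1.13 (adjusted p = 3.27e-06). Line 5 was above all 7 other lines for HSP30 and for row 1652. For HSP30 the differences from lines 2 and 7 did not pass (limma, adjusted p = 0.076 and 0.078). For row 3698 line 4, at −1.56, was not detectably different from line 5 (limma, adjusted p = 0.90). For row 3698 array 1, at −2.27, lay well below the other arrays of line 5. Among the 22 called rows measured in all 8 lines, line 5 did not stand apart from the other lines in any row by Dixon's test. EGO4, which had too few values in line 4, was the called row left out. Dixon's test sets the gap to the nearest line against the range over the 8 lines, whereas the limma contrasts rest on technical spread. It did not flag even row 1652, at 1.39 against −0.52 to 0.66 in the other lines. The absence of flags therefore does not show that line 5 was like the other lines.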

How the results depend on the processing

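The 23 calls, 12 higher and 11 lower, became 43 after quantile normalization (25 lower), 34 with floor values kept (22 lower), and 2553 with no fold minimum (1194 higher, 1359 lower). A t-test of the 3 arrays against 0 gave 7 rows at an unadjusted p under 0.005 (3 higher, 4 lower) and 0 after Benjamini-Hochberg adjustment (0 higher, 0 lower). Leaving out 1 array gave 23 to 34 calls, 11 to 20 of them higher and 10 to 14 lower, with the most without array 3. The 3 rows 2-fold apart from the mean of the other lines became 11 after quantile normalization, 9 with floor values kept, 1355 with no fold minimum, 5 without line 3, 5 without line 4, 8 without line 7, and 5 to 14 without 1 array. The 8 rows called in line 5 only became 20 after quantile normalization, 18 with floor values kept and 9 to 23 without 1 array, and the 3 rows set apart from every line became 20 with no fold minimum and 1 to 8 without 1 array. The cause of these shifts was not tested. Centring, a robust variance, fitting line 5 alone or requiring 3 values kept the number of calls between 21 and 23. Same-numbered arrays of other groups did not deviate together with those of line 5 in a fixed direction (correlations from −0.37 to 0.29). The mean over the 3 numbers ran from −0.23 for line 2 to 0.16 for line 3. Whether the numbers pair the arrays was not tested. With the replicate number as a block, 23 rows were called and 2 in place of 3 were set apart. Ribosome assembly factors had 81 to 91 lower rows, ribosomal proteins 45 to 70, and general stress genes 16 to 26 higher rows over the alternatives. Precision is limited by 3 technical arrays.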
